A study of Mus musculus with 18 samples.

Results

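A set of 9 genes that sets the pace of the G1 phase were followed across mouse embryonic fibroblasts that lacked ATF4 or C/EBP gamma: the CDK inhibitors Cdkn1a, Cdkn1b, Cdkn1c, Cdkn2a, Cdkn2b and Cdkn2c and the D-type cyclins Ccnd1, Ccnd2 and Ccnd3. They are 9 of the 18194 genes that had a probe set of their own on the array, and their probe sets were found by gene symbol. The 9 genes and the gene lists used below were chosen with earlier results of these data known. The 9 genes had 21 probe sets between them, and the brightest on average across the 18 arrays stood for its gene. All 9 passed the filter on low values, a highest group mean of at least 4.65 on the log2 scale, and each of them lay above that value in all 6 groups.

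The fibroblasts (MEFs) came from E13.5 embryos, had been passaged 2 or 3 times, and were WT, Atf4-/- or Cebpg-/-. Cells of each genotype were plated for 24 h and then received normal medium or medium for amino acid deprivation (AAD) for 3 h. The AAD medium was Krebs-Ringer Buffer with supportive additions, so that AAD differs from normal medium in more than its amino acids. Each of the 6 groups had 3 Affymetrix arrays, and the values are log2 probe set values. The labels do not say whether the 3 arrays of a group came from separate embryos or cultures, so p-values measure the spread between these samples, which may be technical.

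D-type cyclins bind CDK4 and CDK6, and the active kinases phosphorylate the retinoblastoma protein and so release E2F factors, which switch on genes of DNA replication. Inhibitors of the INK4 class, encoded by Cdkn2a, Cdkn2b and Cdkn2c, bind CDK4 and CDK6 and keep cyclin D away, while those of the Cip/Kip class, encoded by Cdkn1a, Cdkn1b and Cdkn1c, bind cyclin-CDK complexes, CDK2 complexes among them. In cultured embryonic fibroblasts Cdkn2a and Cdkn2b are known for rising as cells approach senescence. ATF4 is a bZIP transcription factor of the amino acid response, and C/EBP gamma is another bZIP protein and one of its dimer partners.

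The array medians lay between 5.21 and 5.27, and the lowest correlation of an array with another of its group was between 0.993 and 0.996. The Atf4 probe set was lower in Atf4-/- than in WT in normal medium (log2 difference -5.59 ± 0.09, SE, n = 3 arrays per group, limma adjusted p = 1.53e-15). The Cebpg probe set did not check the label of the Cebpg-/- arrays, since its difference from WT was 0.05 ± 0.11 in normal medium (adjusted p = 0.805), though in AAD it was -0.74 ± 0.11 (adjusted p = 0.000133), and the sources used here do not place it relative to the deleted part. Cebpg-/- therefore means the arrays labelled so. On the Atf4-/- arrays the Cebpg probe set differed from WT by -1.36 ± 0.11 in normal medium (limma adjusted p = 5.55e-08). In AAD that difference was -2.42 ± 0.11 (adjusted p = 1.17e-10). The Atf4-/- arrays thus also held less Cebpg RNA than WT, and its part in the differences below was not tested. All 13 fibroblast markers were above 4.65 in every group. In normal medium, however, 7 were lower and 2 higher in Atf4-/- than in WT, beside 21.4% lower and 30.2% higher of all genes tested. In AAD 6 were lower and 2 higher, beside 22.9% and 31.4%. In Cebpg-/- 8 were lower in normal medium and 7 in AAD, beside 11.1% and 13.4% of all genes. Col1a1 differed by -1.97 ± 0.15 in Atf4-/- (adjusted p = 3.50e-08) and by -1.15 ± 0.15 in Cebpg-/- (6.63e-05) in normal medium, Thy1 by -0.88 ± 0.21 (0.00211) and -1.53 ± 0.21 (8.50e-05), and Lum by 1.74 ± 0.29 (0.000105) and 0.19 ± 0.29 (0.694). Their summed level, as log2, was 16.10 to 16.14 on the WT arrays in normal medium, 15.60 to 15.68 in Atf4-/- and 15.64 to 15.79 in Cebpg-/-, and in AAD it was 16.16 to 16.22, 15.63 to 15.73 and 15.74 to 15.86. Of 5 endothelial markers 1 was above 4.65, Kdr, and Pecam1 and Cdh5 were not. The summed level of 6 epithelial markers was 7.86 to 8.58 on the arrays of the other 5 groups and 8.19, 9.82 and 8.75 in Cebpg-/- in AAD. Without the array at 9.82, the same number of the 9 genes was called in each comparison that uses it. Of 10 macrophage markers, 7 were higher in Atf4-/- in normal medium and 9 in AAD, beside 30.2% and 31.4% of all genes. In Cebpg-/- 9 and 10 were higher, beside 12.3% and 16.1%. The summed level of the 10 markers, as log2, was 12.32 to 12.35 on the WT arrays in normal medium, 13.09 to 13.51 in Atf4-/- and 13.44 to 13.89 in Cebpg-/-, and in AAD it was 11.67 to 11.74, 12.45 to 13.00 and 12.62 to 13.09. Lyz2, the brightest of the 10 in each group, weighs most in this sum, and in WT it changed by -1.24 under AAD. Under AAD 2 of the 10 were called lower in WT, 1 in Atf4-/- and 4 in Cebpg-/-, beside 13.9%, 2.03% and 10.3% of all genes. All 5 smooth muscle markers were lower in Cebpg-/- in both media, beside 11.1% (normal) and 13.4% (AAD) of all genes. In Atf4-/- 3 were lower in normal medium (Tagln, Cnn1, Myl9) and 2 in AAD (Tagln, Myl9), beside 21.4% and 22.9%. The summed level of the 5 markers was 15.40 to 15.50 in WT, 15.10 to 15.25 in Atf4-/- and 14.99 to 15.19 in Cebpg-/- in normal medium, and 15.26 to 15.38, 15.10 to 15.23 and 14.86 to 15.05 in AAD. The gap between the 3' and the 5' Actb control probe sets, a sign of RNA quality, averaged 0.217 and 0.247 in Atf4-/- (normal, AAD) against 0.106 to 0.153 in the other 4 groups. For the Gapdh control probe sets the same gap averaged -0.214 and -0.192 in Atf4-/-, close to the -0.208 to -0.182 of the other 4 groups. In such bulk samples, fewer cells of a type and less RNA per cell cannot be told apart, and the part of these cell type markers and of RNA quality in the differences between genotypes and media below was not tested.

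The windows upstream of Cdkn2a and Cdkn2b, neighbours on chromosome 4, are shown because these genes were lower together in Atf4-/-. Those of Cdkn1a are shown because it was higher there. RefSeq windows (GRCm38.p6) were found for 6 of the 9 genes, Cdkn1a, Cdkn1b, Cdkn2a, Cdkn2b, Cdkn2c and Ccnd3, with 10 starts in all. Each window printed holds the 250 bases before an annotated start, 5′ to 3′ on the gene's strand, and capitals mark the motifs found. The Cdkn2b window is chr4:89311033-89311282 (minus strand), the Cdkn2a windows of its 2 starts are chr4:89294620-89294869 and chr4:89282193-89282442 (minus strand), and the Cdkn1a windows are chr17:29090729-29090978 and chr17:29093519-29093768 (plus strand). In the first Cdkn1a window the capitals mark only its closest match to a p53 element.
Cdkn2b: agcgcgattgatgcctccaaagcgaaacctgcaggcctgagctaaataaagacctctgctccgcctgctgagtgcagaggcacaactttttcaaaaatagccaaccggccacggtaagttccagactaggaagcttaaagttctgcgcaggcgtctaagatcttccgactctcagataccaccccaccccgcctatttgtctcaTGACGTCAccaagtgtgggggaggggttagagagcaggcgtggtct
Cdkn2a, first start: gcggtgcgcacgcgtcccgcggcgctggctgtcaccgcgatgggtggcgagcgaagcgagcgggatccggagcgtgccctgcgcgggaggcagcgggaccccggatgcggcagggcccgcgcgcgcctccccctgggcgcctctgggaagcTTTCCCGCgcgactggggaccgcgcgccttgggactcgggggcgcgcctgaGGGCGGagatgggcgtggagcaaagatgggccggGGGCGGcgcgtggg
Cdkn2a, second start: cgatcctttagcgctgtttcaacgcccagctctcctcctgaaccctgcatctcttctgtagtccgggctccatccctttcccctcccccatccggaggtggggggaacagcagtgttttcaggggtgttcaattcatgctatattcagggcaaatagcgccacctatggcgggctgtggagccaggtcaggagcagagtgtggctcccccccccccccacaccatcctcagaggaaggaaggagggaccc
Cdkn1a, first start: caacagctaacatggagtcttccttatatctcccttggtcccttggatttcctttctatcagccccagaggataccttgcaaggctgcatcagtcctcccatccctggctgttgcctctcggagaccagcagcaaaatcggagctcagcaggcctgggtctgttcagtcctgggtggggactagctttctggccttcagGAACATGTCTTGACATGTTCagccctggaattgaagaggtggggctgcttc
Cdkn1a, second start: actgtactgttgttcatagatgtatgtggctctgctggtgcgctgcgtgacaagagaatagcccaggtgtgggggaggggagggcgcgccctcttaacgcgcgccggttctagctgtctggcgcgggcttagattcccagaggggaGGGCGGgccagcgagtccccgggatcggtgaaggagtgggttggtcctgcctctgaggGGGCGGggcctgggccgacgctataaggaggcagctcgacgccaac

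The Cdkn2b window held a full cyclic AMP response element, TGACGTCA, that begins 46 bases before the start, and so do 1.55% of the 32851 windows of the table. This element contains the shorter core TGACG on both strands, which 17.8% of all windows hold and which was also found in both Ccnd3 windows. The first Cdkn2a window held the E2F motif TTTCCCGC (0.895% of all windows) and, 48 and 14 bases before the start, the GC box GGGCGG (32.7% of all windows). Cdkn1a had GC boxes 104 and 46 bases before the second of these starts. GC boxes also occurred in the Cdkn1b window, a Cdkn2c window and both Ccnd3 windows. None of the 10 windows held the C/EBP-ATF motif TGATGNAAN (3.44% of all windows), the C/EBP motif TTGCNNAA (9.56%), the AP-1 motif TGANTCA (6.75%), the E-box CACGTG (6.02%) or TATAAA (12.4%). The FOXO motif TGTTTAC (3.17%) occurred in 1 Ccnd3 window, and CCAAT (33.8%) in the Cdkn1b window and 1 Ccnd3 window. A full p53 element was added to the search after the windows had been read; it occurred in 0.00913% of all windows and in none of the 10. Its closest match among them, also sought afterwards, was in the first Cdkn1a window, where 19 of its 20 bases matched from 51 bases before the start, and 0.0761% of all windows hold a match of at least 19. All motifs were searched on both strands, and a match describes these letters and not a bound site.

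**Figure D1:**
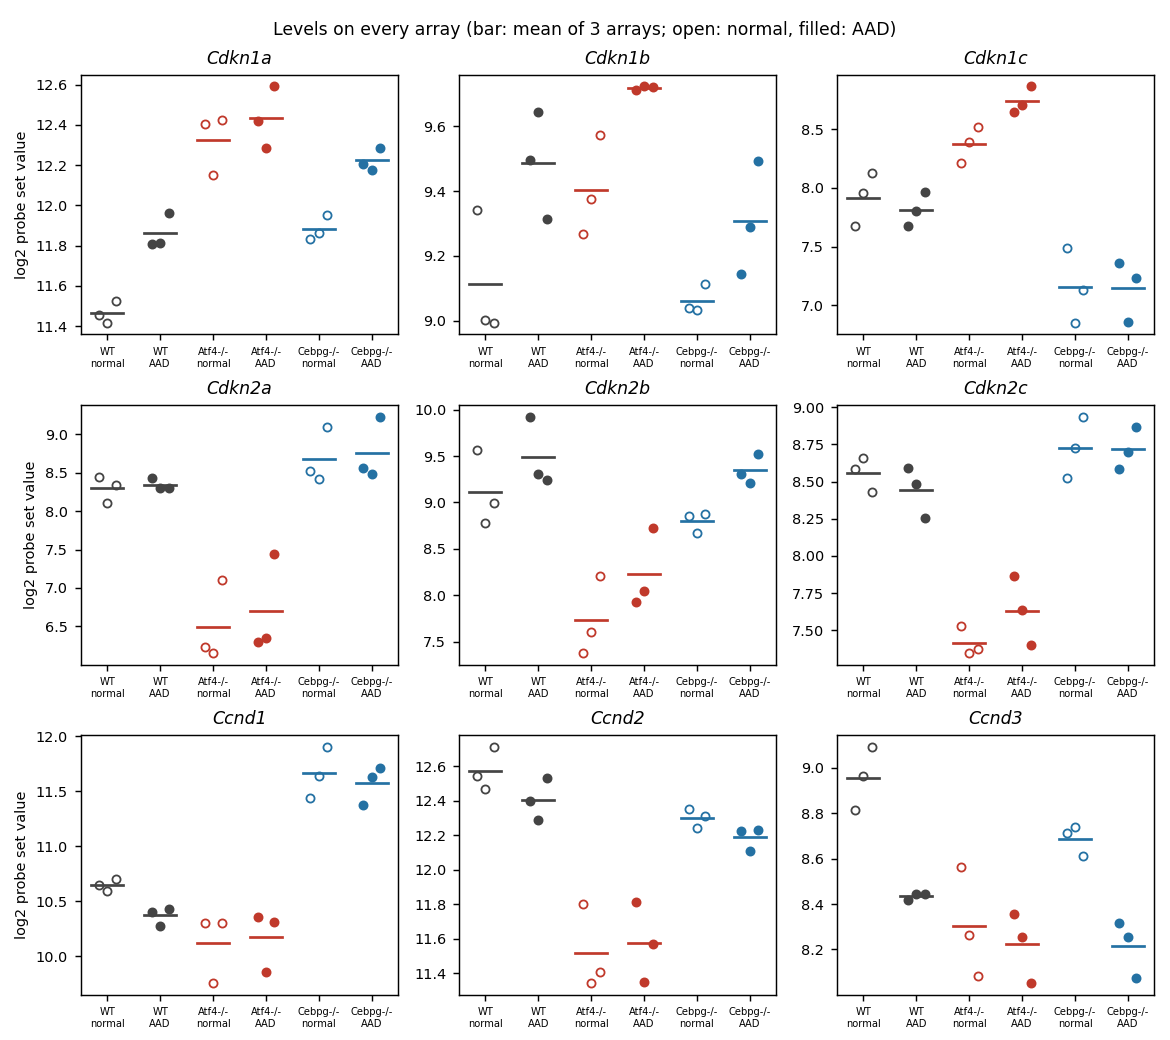
Log2 probe set values of the 9 genes on all 18 arrays (vertical axis, a scale of its own for each gene) by genotype and medium (horizontal axis), with open points for normal medium, filled points for AAD and a bar at the mean of 3 arrays. Cdkn2a, Cdkn2c and Ccnd2 are lowest on the Atf4-/- arrays, Cdkn2b is lower there than on the WT arrays of the same medium, and Ccnd1 is highest on the Cebpg-/- arrays.

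In normal medium, loss of ATF4 was accompanied by lower INK4 inhibitors and D-type cyclins and by higher Cip/Kip inhibitors on the brightest probe sets. In normal medium 6 of the 9 genes were lower in Atf4-/- than in WT (Cdkn2a, Cdkn2b, Cdkn2c, Ccnd1, Ccnd2, Ccnd3) and 3 were higher (Cdkn1a, Cdkn1b, Cdkn1c), at an adjusted p under 0.05 in limma. Over all 13728 genes tested, 21.4% were lower and 30.2% higher. The calls of Cdkn1b, Cdkn1c and Ccnd1 in that medium were lost without single arrays, as given below. In AAD 4 were lower (Cdkn2a, Cdkn2b, Cdkn2c, Ccnd2), 2 were higher (Cdkn1a, Cdkn1c) and 3 were not called, beside 22.9% lower and 31.4% higher of all genes. The median difference of the 9 genes was -0.65 in normal medium and -0.21 in AAD, and that of all genes was 0.02 in both. The values of WT and Atf4-/- did not overlap for 8 of the 9 genes in either medium, beside 58.7% of all genes in normal medium and 61.1% in AAD.

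The Cebpg-/- arrays differed from WT in fewer of these genes. In normal medium Cdkn1a and Ccnd1 were higher and Cdkn1c was lower, 2 and 1 of 9 genes, beside 12.3% higher and 11.1% lower of all genes. In AAD the counts were again 2 higher and 1 lower, for the same 3 genes, beside 16.1% and 13.4%. The values of WT and Cebpg-/- did not overlap for 5 of the 9 genes in normal medium and 6 in AAD, beside 42.9% and 41.9% of all genes. The comparisons of the 2 knockouts with WT share the WT arrays. With the mean of all probe sets of a gene in place of the brightest, 5 genes were called in normal medium, because Cdkn1b (log2 difference -0.35, adjusted p = 0.0190) and Ccnd2 (-0.37, adjusted p = 0.0386) were lower as well. In that fit 3098 of all 12932 genes tested were called.

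**Figure D2:**
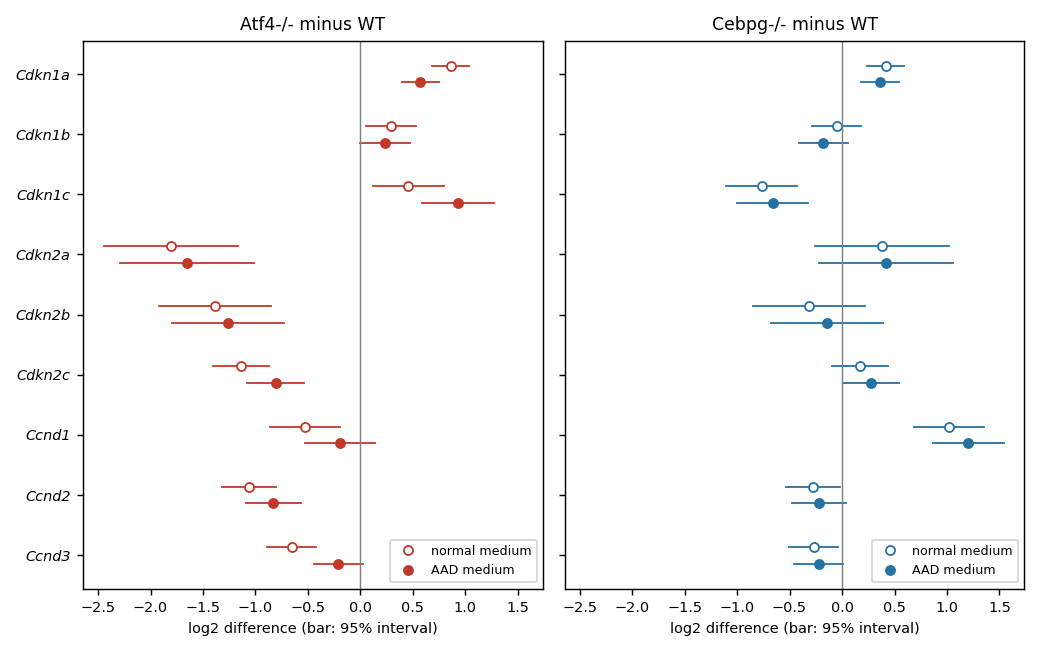
Log2 difference of each knockout from WT (horizontal axis) for the 9 genes (vertical axis), in normal medium (open) and AAD (filled), with 95% confidence intervals from limma. In Atf4-/- the intervals of Cdkn2a, Cdkn2b, Cdkn2c and Ccnd2 lie below 0 in both media, and in Cebpg-/- those of Ccnd1 lie above 0.

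Cdkn1a, which encodes the Cip/Kip inhibitor p21 and is a classical p53 target, was higher in both knockouts. Its values on the WT arrays were 11.46, 11.42 and 11.53 in normal medium and 11.81, 11.81 and 11.96 in AAD. Atf4-/- arrays gave 12.40, 12.15 and 12.42 in normal medium and 12.42, 12.29 and 12.59 in AAD, and Cebpg-/- arrays 11.83, 11.86 and 11.95 and 12.20, 12.18 and 12.29. WT in normal medium was thus lowest with no overlap with any other group, whereas WT in AAD overlapped Cebpg-/- in normal medium. In normal medium the log2 difference from WT was 0.86 ± 0.08 in Atf4-/- (SE, 1.82-fold, adjusted p = 3.69e-07) and 0.42 ± 0.08 in Cebpg-/- (adjusted p = 0.00189). In AAD these differences were 0.57 ± 0.08 (adjusted p = 2.51e-05) and 0.36 ± 0.08 (adjusted p = 0.00401). The other Cdkn1a probe set differed by 0.78 ± 0.08 in Atf4-/- (adjusted p = 4.22e-07) and by 0.35 ± 0.08 in Cebpg-/- (adjusted p = 0.00332) in normal medium, but in AAD its difference in Cebpg-/- was 0.20 ± 0.08 (adjusted p = 0.0626).

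Cdkn1b encodes p27, whose protein level is set largely by degradation through the ubiquitin ligase subunit SKP2. On the WT arrays it measured 9.34, 9.0 and 8.99 in normal medium and 9.50, 9.64 and 9.31 in AAD. The Atf4-/- arrays were at 9.27, 9.37 and 9.57 and, close together, at 9.71, 9.72 and 9.72 in AAD, and the Cebpg-/- arrays at 9.04, 9.03 and 9.11 and 9.14, 9.29 and 9.49. The first WT array in normal medium was higher than the other 2 and overlapped the Atf4-/- arrays. The difference of 0.29 ± 0.11 in Atf4-/- in normal medium (adjusted p = 0.0365) was no longer called without WT replicate 2 (0.24, adjusted p = 0.133) or 3 (0.23, 0.139) or Atf4-/- replicate 2 (0.31, 0.0600) or 3 (0.21, 0.165) of that medium, nor with only the compared groups in the fit (adjusted p = 0.0783). The other Cdkn1b probe set went the other way in value, at -0.11 ± 0.19 (adjusted p = 0.665), and it was lower in Cebpg-/- in normal medium (-0.65 ± 0.19, adjusted p = 0.0245) and also in AAD (-0.65 ± 0.19, adjusted p = 0.0204), where the brighter one gave -0.05 ± 0.11 and -0.18 ± 0.11 (adjusted p = 0.784 and 0.254).

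Cdkn1c, an imprinted gene that encodes p57, moved in opposite directions in the 2 knockouts. It measured 7.67, 7.96 and 8.12 on the WT arrays in normal medium and 7.67, 7.80 and 7.96 in AAD. In Atf4-/- the values were 8.21, 8.39 and 8.52 and 8.65, 8.71 and 8.87, all above WT, and in Cebpg-/- they were 7.48, 6.85 and 7.13 and 7.36, 6.86 and 7.23, all below WT. The differences in Cebpg-/- were -0.76 ± 0.16 (adjusted p = 0.00252) in normal medium and -0.66 ± 0.16 (adjusted p = 0.00550) in AAD. In Atf4-/- the difference was 0.93 ± 0.16 in AAD (adjusted p = 0.000126) and 0.46 ± 0.16 in normal medium (adjusted p = 0.0252). The latter was no longer called without WT replicate 1 (0.33, adjusted p = 0.124) or Atf4-/- replicate 2 (0.45, 0.0583) or 3 (0.38, 0.0959) of that medium.

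Cdkn2a had the widest range of the 9 genes over the 18 arrays, 3.08 on the log2 scale. Its locus encodes p16INK4a and, from another first exon and reading frame, p19ARF, a protein that stabilises p53; the gene has 1 probe set here, which does not separate them. The WT arrays were at 8.45, 8.11 and 8.34 in normal medium and 8.43, 8.31 and 8.30 in AAD, and the Cebpg-/- arrays at 8.53, 8.43 and 9.10 and 8.56, 8.49 and 9.23. Every Atf4-/- array was below these, with 6.23, 6.15 and 7.11 in normal medium and 6.29, 6.35 and 7.44 in AAD. Replicate 3 stood above the other 2 in both media of Atf4-/- and of Cebpg-/-. Cdkn2a was lower in Atf4-/- in normal medium (log2 difference -1.80 ± 0.30, 3.49-fold, adjusted p = 9.86e-05) and in AAD (-1.65 ± 0.30, 3.13-fold, adjusted p = 0.000215). Its values in Cebpg-/- differed from WT by 0.38 ± 0.30 (adjusted p = 0.399) and 0.42 ± 0.30 (adjusted p = 0.331).

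Cdkn2b, the neighbouring gene, encodes p15INK4b, an inhibitor known to be induced by TGF-beta. Arrays of WT cells read 9.57, 8.78 and 8.99 in normal medium and 9.93, 9.31 and 9.24 in AAD, with replicate 1 highest in both. For Atf4-/- the values were 7.38, 7.60 and 8.21 and 7.93, 8.04 and 8.72, with replicate 3 highest in both, and for Cebpg-/- 8.86, 8.67 and 8.88 and 9.31, 9.21 and 9.53. Within each medium all Atf4-/- arrays were below all WT arrays. The differences were -1.38 ± 0.25 in normal medium (2.61-fold lower, adjusted p = 0.000223) and -1.26 ± 0.25 in AAD (2.4-fold lower, adjusted p = 0.000487). Cebpg-/- overlapped WT in both media, at -0.32 ± 0.25 (adjusted p = 0.409) and -0.14 ± 0.25 (adjusted p = 0.723).

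Cdkn2c encodes p18INK4c, an INK4 inhibitor whose expression rises with E2F activity in cycling cells. Values of 8.58, 8.66 and 8.43 were measured in WT in normal medium and 8.59, 8.48 and 8.26 in AAD. The Atf4-/- arrays had 7.53, 7.35 and 7.38 and 7.86, 7.64 and 7.40, below every WT array, and the Cebpg-/- arrays 8.52, 8.72 and 8.94 and 8.59, 8.70 and 8.87, which overlapped WT. Cdkn2c differed in Atf4-/- by -1.14 ± 0.13 in normal medium (2.2-fold lower, adjusted p = 1.49e-06) and by -0.81 ± 0.13 in AAD (1.75-fold lower, adjusted p = 4.67e-05). The corresponding values in Cebpg-/- were 0.17 ± 0.13 (adjusted p = 0.370) and 0.27 ± 0.13 (adjusted p = 0.116).

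Ccnd1, the cyclin D gene most closely tied to growth factor signalling, was higher in Cebpg-/- in both media. WT arrays measured 10.64, 10.59 and 10.70 in normal medium and 10.40, 10.28 and 10.43 in AAD. On the Cebpg-/- arrays it was 11.44, 11.64 and 11.90 and 11.38, 11.63 and 11.71, above every other array, and on the Atf4-/- arrays 10.30, 9.75 and 10.30 and 10.36, 9.85 and 10.31, where replicate 2 was lowest in both media. In Cebpg-/- the difference from WT was 1.02 ± 0.16 in normal medium (2.02-fold, adjusted p = 0.000242) and 1.20 ± 0.16 in AAD (2.3-fold, adjusted p = 4.50e-05). All 3 Ccnd1 probe sets were called higher in Cebpg-/- in both media, with differences of 0.98 to 1.03 in normal medium and 1.12 to 1.20 in AAD. In Atf4-/- the difference was -0.53 ± 0.16 in normal medium (adjusted p = 0.0104), which without Atf4-/- replicate 2 of that medium was -0.34 and not called (adjusted p = 0.0686). In AAD it was -0.20 ± 0.16 (adjusted p = 0.311), and 1 of the 3 probe sets was called there, at -0.50 (adjusted p = 0.00826).

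Ccnd2 was lower in Atf4-/- on each of its probe sets. The brightest one read 12.54, 12.47 and 12.71 on the WT arrays in normal medium and 12.40, 12.29 and 12.53 in AAD. Atf4-/- gave 11.80, 11.34 and 11.41 and 11.81, 11.35 and 11.57, with replicate 1 highest in both, and Cebpg-/- gave 12.35, 12.24 and 12.31 and 12.22, 12.11 and 12.23. The Atf4-/- arrays were below all others, and the Cebpg-/- arrays lay below the WT arrays of the same medium. Ccnd2 differed in Atf4-/- by -1.06 ± 0.12 in normal medium (2.08-fold lower, adjusted p = 2.22e-06) and by -0.83 ± 0.12 in AAD (1.78-fold lower, adjusted p = 2.62e-05). All 7 probe sets were called lower there in both media, with differences of -1.28 to -1.03 in normal medium. In Cebpg-/- the brightest probe set differed by -0.28 ± 0.12 (adjusted p = 0.117) and -0.22 ± 0.12 (adjusted p = 0.199), and in normal medium 2 of the 7 probe sets were called lower. With only the compared groups in the fit the former was called (adjusted p = 0.0380).

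Ccnd3, the third D-type cyclin, was lower in Atf4-/- in normal medium. Its WT values were 8.81, 8.96 and 9.09 in normal medium and 8.42, 8.44 and 8.44 in AAD, the latter below every WT array in normal medium. Atf4-/- measured 8.56, 8.26 and 8.08 and 8.36, 8.26 and 8.05, and Cebpg-/- 8.71, 8.74 and 8.61 and 8.32, 8.26 and 8.07. Against WT the difference in normal medium was -0.65 ± 0.11 in Atf4-/- (1.57-fold lower, adjusted p = 0.000105) and -0.27 ± 0.11 in Cebpg-/- (adjusted p = 0.0901). In AAD it was -0.21 ± 0.11 (adjusted p = 0.115) and -0.22 ± 0.11 (adjusted p = 0.151). Of the other 2 Ccnd3 probe sets, 1 was below the filter in all groups. The remaining one was lower in Atf4-/- in both media, at -0.28 ± 0.08 (adjusted p = 0.0105) and -0.26 ± 0.08 (adjusted p = 0.0151).

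**Figure D3:**
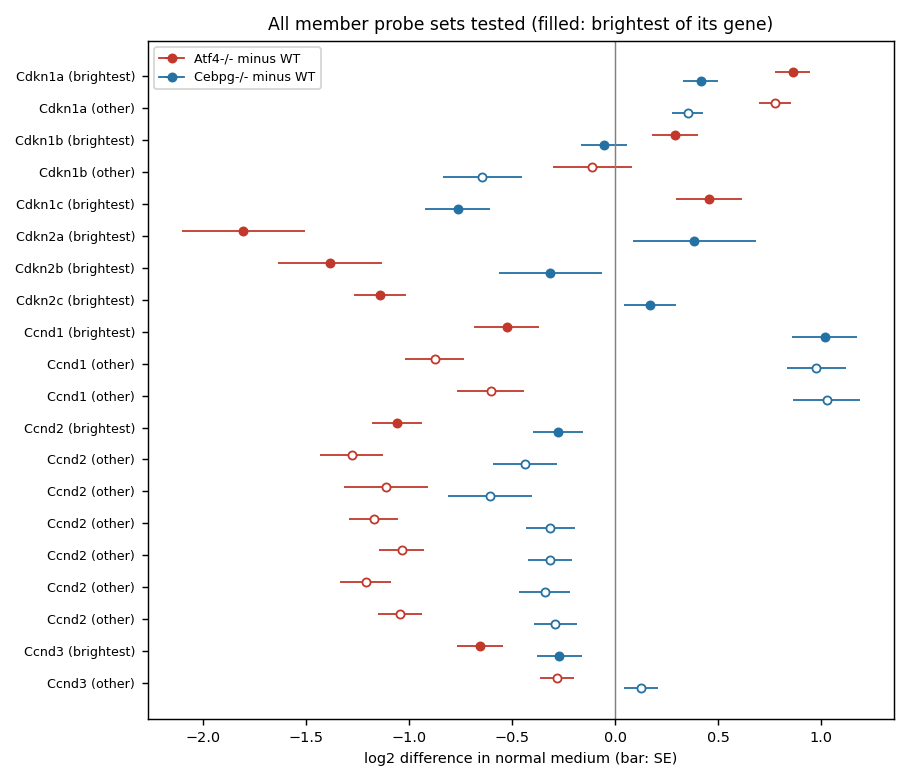
Log2 difference of Atf4-/- and Cebpg-/- from WT in normal medium (horizontal axis, with standard errors) for each of the 20 probe sets of the 9 genes that passed the filter (vertical axis), filled for the brightest of a gene. In Atf4-/- the Ccnd2 probe sets run from -1.28 to -1.03, the Ccnd1 probe sets from -0.87 to -0.53 and the Ccnd3 probe sets from -0.65 to -0.28, while those of Cdkn1b lie on both sides of 0 (-0.11 and 0.29).

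In WT cells 3 h of AAD went with more Cdkn1a and Cdkn1b and less Ccnd3. These were 2 genes higher and 1 lower of the 9, beside 14.3% higher and 13.9% lower of all genes tested. Cdkn1a rose by 0.39 ± 0.08 (1.31-fold, adjusted p = 0.00192) and Ccnd3 changed by -0.52 ± 0.11 (1.44-fold lower, adjusted p = 0.00185). Cdkn1b rose by 0.37 ± 0.11 (adjusted p = 0.0183), with 1 WT array in normal medium above 1 in AAD. That call was lost without WT replicate 2 (adjusted p = 0.0816) or 3 (0.0815) in normal medium or replicate 1 (0.05003) or 2 (0.0906) in AAD, and with only the compared groups in the fit (0.0608). On its second probe set Ccnd3 did not follow, at -0.01 ± 0.08 (adjusted p = 0.953), and Cdkn1b was at 0.22 ± 0.19 (adjusted p = 0.473), while that of Cdkn1a rose by 0.42 ± 0.08 (adjusted p = 0.000584).

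Arrays with the same replicate number deviated together within a genotype, so each response was also fitted with the replicate number as a block. With the block 3 of the 9 genes were higher in WT (Cdkn1a, Cdkn1b, Cdkn2b) and 3 lower (Ccnd1, Ccnd2, Ccnd3), beside 19.6% higher and 19.6% lower of all genes. Between arrays of the same number, Cdkn2b changed by 0.36, 0.53 and 0.24 in WT, 0.55, 0.44 and 0.51 in Atf4-/- and 0.45, 0.54 and 0.65 in Cebpg-/-, a rise in 9 of 9 pairs. Its mean change was 0.38 ± 0.25, 0.50 ± 0.25 and 0.55 ± 0.25 (adjusted p = 0.317, 0.352 and 0.140), and with the block it was called in each genotype (adjusted p = 0.000712, 0.000785 and 8.42e-05). Cdkn1a and Cdkn1b were also higher in AAD in 9 of 9 pairs, and Ccnd3 was lower in 9 of 9. The share of all genes with 9 of 9 pairs in 1 direction was not counted. In Atf4-/- the changes were small, at 0.02, 0.13 and 0.17 for Cdkn1a and -0.20, -0.01 and -0.03 for Ccnd3. Neither was called there with the block (limma adjusted p = 0.182 and 0.441). In WT the changes of Ccnd1 were -0.24, -0.31 and -0.27 (adjusted p = 0.230, with the block 0.00128) and those of Ccnd2 -0.14, -0.18 and -0.18 (adjusted p = 0.352, with the block 0.0138). With only the compared groups in the fit, Ccnd1 was called too (adjusted p = 0.0187).

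**Figure D4:**
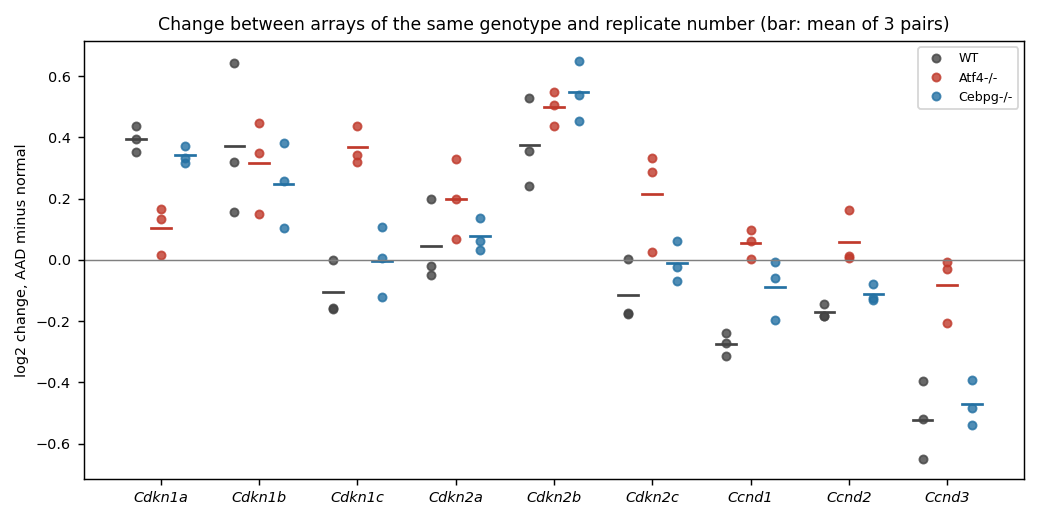
Log2 change from normal medium to AAD (vertical axis) between arrays of the same genotype and replicate number, for the 9 genes (horizontal axis) in WT, Atf4-/- and Cebpg-/-, with a bar at the mean of 3 pairs. Cdkn2b lies above 0 in all 9 pairs (0.24 to 0.65) and Ccnd3 below 0 in all 9 (-0.65 to -0.01).

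In Cebpg-/- cells AAD was followed by the same direction for Cdkn1a and Ccnd3. Cdkn1a rose by 0.34 ± 0.08 (adjusted p = 0.00754) and Ccnd3 changed by -0.47 ± 0.11 (adjusted p = 0.00554), 1 gene higher and 1 lower of 9 beside 11.7% and 10.3% of all genes. The second Ccnd3 probe set was also lower there, at -0.27 ± 0.08 (adjusted p = 0.0330). With the block Cdkn2b joined, which made 2 higher and 1 lower, beside 17.2% and 16.8%. Cdkn1b was at 0.25 ± 0.11 (adjusted p = 0.126, with the block 0.0595).

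In Atf4-/- cells limma called 0 of the 9 genes in AAD against normal medium, beside 2.67% higher and 2.03% lower of all genes. At an unadjusted p under 0.05 there were 2, Cdkn1b and Cdkn1c, and the share of all genes at that threshold was not counted. Cdkn1a was at 0.10 ± 0.08 (95% interval -0.07 to 0.28, adjusted p = 0.608) and Ccnd3 at -0.08 ± 0.11 (-0.31 to 0.15, adjusted p = 0.808). Cdkn1c gave 0.44, 0.32 and 0.34 in the 3 pairs, where WT gave -0.00, -0.16 and -0.16 and Cebpg-/- -0.12, 0.00 and 0.11. With the block 2 genes were higher and none lower, Cdkn1c (adjusted p = 0.00274, against 0.260 without it) and Cdkn2b, beside 6.42% higher and 4.68% lower of all genes. Cdkn1b was at 0.32 ± 0.11 (adjusted p = 0.133, with the block 0.0523).

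Whether the response to AAD differed between genotypes was tested as the difference of the responses, in which a shallower fall counts as higher. Between Atf4-/- and WT 2 of the 9 genes had an unadjusted p under 0.05 (Cdkn1a and Ccnd3). The share of all genes at that threshold was not counted. At an adjusted p under 0.05 limma called 0 of the 9, beside 5.73% higher and 7.04% lower of all genes. With the block 5 were higher (Cdkn1c, Cdkn2c, Ccnd1, Ccnd2, Ccnd3) and 1 was lower (Cdkn1a), beside 12.1% and 11.7%. The response of Cdkn1a was -0.29 ± 0.12 relative to WT (adjusted p = 0.130, with the block 0.00978), and that of its other probe set -0.35 ± 0.11 (adjusted p = 0.0448). Ccnd3 differed by 0.44 ± 0.16 (adjusted p = 0.0780, with the block 0.00473), but on its second probe set by 0.02 ± 0.12 (adjusted p = 0.957). For Cdkn1c the difference was 0.47 ± 0.23 (adjusted p = 0.207, with the block 0.00218). Ccnd1, Ccnd2 and Cdkn2c differed by 0.33 ± 0.22, 0.23 ± 0.17 and 0.33 ± 0.18 (adjusted p = 0.406, 0.462 and 0.270, with the block 0.00716, 0.0287 and 0.0275). Single arrays moved this count: without Atf4-/- replicate 3 in AAD, Cdkn1a (adjusted p = 0.0482) and Ccnd3 (0.0422) were called, without Atf4-/- replicate 1 in normal medium Ccnd3 (0.0137), and without its replicate 2 Cdkn1a (0.0414).

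Between Cebpg-/- and WT 0 of the 9 responses were called to differ, by limma with or without the block, and 0 had an unadjusted p under 0.05 without it. At an adjusted p under 0.05, 0.0801% of all genes were higher and 0.146% lower, and with the block 0.656% and 0.721%. The 95% intervals of the difference were -0.30 to 0.20 for Cdkn1a and -0.28 to 0.38 for Ccnd3, which leaves room for differences of those sizes.

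Between the 2 knockouts 1 of the 9 responses had an unadjusted p under 0.05 (Ccnd3), a threshold at which all genes were not counted. At an adjusted p under 0.05 limma called 0 of 9 as different, beside 1.61% higher and 3.69% lower of all genes. With the block 2 were higher in Atf4-/- (Cdkn1c and Ccnd3) and 1 was lower (Cdkn1a), beside 5.73% and 7.55%. The differences were 0.39 ± 0.16 for Ccnd3 (adjusted p = 0.182, with the block 0.0152), 0.37 ± 0.23 for Cdkn1c (0.449, with the block 0.0138) and -0.24 ± 0.12 for Cdkn1a (0.320, with the block 0.0395). Without Atf4-/- replicate 1 in normal medium, Ccnd3 was called (0.52, adjusted p = 0.0422).

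The partners of these genes, cyclin-dependent kinases, other cyclins, E2F factors, retinoblastoma proteins and ubiquitin ligase subunits, were taken from a list of 31 genes, of which 30 were tested. Against WT in normal medium, 18 of the 30 were lower in Atf4-/- and 6 higher, beside 21.4% lower and 30.2% higher of all genes, and in AAD 16 were lower and 6 higher, beside 22.9% and 31.4%. Among these, chosen after their values were seen, Cdkn3, a phosphatase that acts on CDKs, differed by -2.65 ± 0.27 in normal medium (adjusted p = 5.70e-07), the mitotic kinase gene Cdk1 by -1.99 ± 0.18 (2.08e-07), Ccna2 (cyclin A) by -1.93 ± 0.22 (2.48e-06) and Ccne2 (cyclin E) by -1.92 ± 0.19 (3.58e-07). The kinases that D-type cyclins activate were not called in normal medium, Cdk4 at -0.11 ± 0.06 (adjusted p = 0.134) and Cdk6 at -0.09 ± 0.11 (0.522). In Cebpg-/- 3 of the 30 were lower and 1 higher in normal medium, beside 11.1% and 12.3% of all genes, and 2 and 1 in AAD, beside 13.4% and 16.1%. Of 14 tested genes of proliferation, 14 were lower in Atf4-/- in both media; in Cebpg-/- limma called 0, with 0 also at an unadjusted p under 0.05 in either medium; their summed log2 level was 13.55 to 14.18 on the Atf4-/- arrays and 14.87 to 15.11 on the WT arrays, and its part in the differences of the cyclins and inhibitors was not tested.

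**Figure D5:**
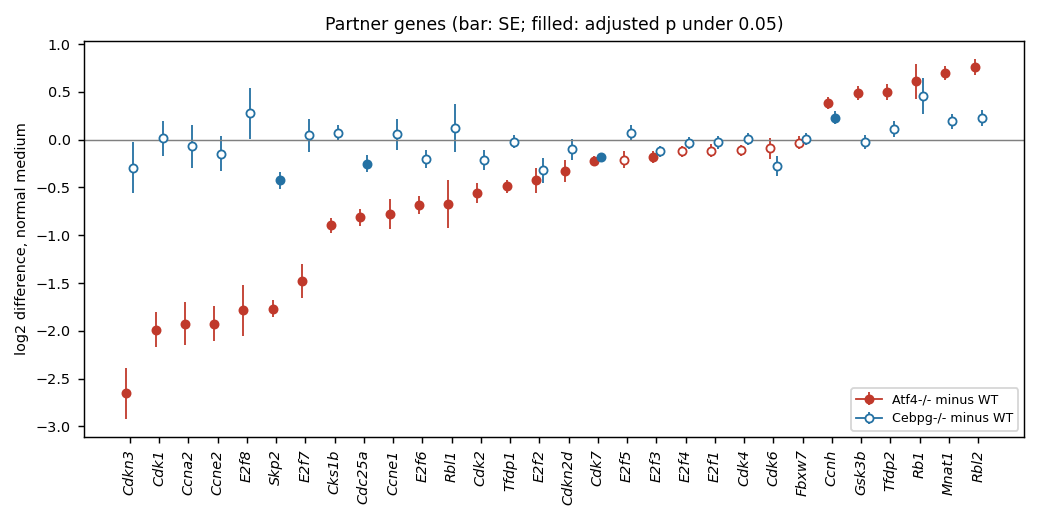
Log2 difference of Atf4-/- and Cebpg-/- from WT in normal medium (vertical axis, with standard errors) for the 30 partner genes tested (horizontal axis, ordered by the difference in Atf4-/-), filled where the adjusted p was under 0.05. In Atf4-/- 18 genes are lower and 6 higher, and in Cebpg-/- 3 and 1.

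Under AAD 5 of the 30 partners rose in WT and 6 fell, shares near the 14.3% and 13.9% of all genes. With the largest changes were Skp2 (-0.98 ± 0.09, adjusted p = 7.34e-07), which directs p27 to degradation, and Cdc25a (-0.87 ± 0.09, 1.49e-06), a phosphatase that activates CDKs. Tfdp2 (0.49 ± 0.09, 0.000444), which pairs with E2F factors, and E2f3 (0.46 ± 0.06, 3.85e-05) rose. In Cebpg-/- 3 rose and 3 fell, beside 11.7% and 10.3% of all genes, with Cdc25a at -0.69 ± 0.09 (2.76e-05), Skp2 at -0.63 ± 0.09 (0.000123), E2f3 at 0.44 ± 0.06 (9.70e-05) and Tfdp2 at 0.44 ± 0.09 (0.00165). In Atf4-/- 1 partner was called, Cdk7, which fell (-0.22 ± 0.05, 0.00963), the CDK-activating kinase, beside 2.03% of all genes lower. The response differed between Atf4-/- and WT for 4 partners, 2 higher and 2 lower beside 5.73% and 7.04% of all genes: Skp2 (0.81 ± 0.13, 0.000595), Cdc25a (0.61 ± 0.12, 0.00378), E2f3 (-0.47 ± 0.09, 0.00223) and Mnat1 (-0.42 ± 0.10, 0.0137), and between Atf4-/- and Cebpg-/- for E2f3 (-0.45 ± 0.09, 0.00576), 1 lower beside 3.69%. With the replicate block the partners that rose and fell were 8 and 13 in WT (19.6% and 19.6% of all genes), 6 and 8 in Cebpg-/- (17.2% and 16.8%) and 2 and 4 in Atf4-/- (6.42% and 4.68%). The response was then higher for 4 and lower for 3 in Atf4-/- than in WT (12.1% and 11.7%), higher for 2 and lower for 2 than in Cebpg-/- (5.73% and 7.55%), and higher for 1, Skp2, in Cebpg-/- than in WT (0.656%). No partner called without the block was lost with it.

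Factors known to regulate CDK inhibitors or D-type cyclins were taken from a list of 18 genes, of which 17 were tested. Against WT in normal medium, 8 of the 17 were higher in Atf4-/- and 2 lower, beside 30.2% and 21.4% of all genes. In AAD 3 were higher and 5 lower, beside 31.4% and 22.9%. For Cebpg-/- 4 were higher and 1 lower in normal medium (12.3% and 11.1%), and 2 and 2 in AAD (16.1% and 13.4%). In WT 8 rose under AAD and 1 fell, beside 14.3% and 13.9% of all genes, with the largest changes in Myc (1.78 ± 0.10, adjusted p = 1.77e-09), Klf4 (1.76 ± 0.10, 2.32e-09), Foxo3 (1.75 ± 0.11, 1.04e-08) and Jun (1.74 ± 0.12, 1.67e-08). In Cebpg-/- 9 rose and 1 fell, beside 11.7% and 10.3%, with Jun at 1.96 ± 0.12 (6.03e-09), Foxo3 at 1.24 ± 0.11 (8.27e-07), Myc at 1.17 ± 0.10 (3.88e-07) and Klf6 at 1.01 ± 0.06 (6.34e-09). In Atf4-/- 2 rose, Foxo3 (0.45 ± 0.11, 0.0276) and the p53 ligase gene Mdm2 (0.38 ± 0.09, 0.0229), and 2 fell, Fosl1 (-0.73 ± 0.12, 0.00174) and Cbx7 (-0.31 ± 0.08, 0.0408), which encodes a Polycomb protein that represses Cdkn2a, beside 2.67% and 2.03% of all genes. Relative to WT the response in Atf4-/- was lower for 8 regulators and higher for 1, beside 7.04% and 5.73%, with Myc at -1.89 ± 0.14 (3.65e-07), Jun at -1.77 ± 0.16 (3.13e-06), Klf4 at -1.53 ± 0.14 (3.13e-06) and Foxo3 at -1.29 ± 0.16 (4.87e-05). Relative to Cebpg-/- it was called for 6, all lower, beside 3.69% lower of all genes, with the largest differences in Jun (-1.98 ± 0.16, 2.20e-06), Myc (-1.28 ± 0.14, 2.88e-05), Klf6 (-1.04 ± 0.09, 2.15e-06) and Fosl1 (-0.85 ± 0.17, 0.00569). Between Cebpg-/- and WT 1 response differed, that of Klf4 (-0.95 ± 0.14, 0.0118), beside 0.146% lower of all genes. With the block Myc was lower there too (adjusted p = 0.0122), 2 beside 0.721%. In the other responses and response differences of the regulators the block moved no total of calls by over 1.5 times. None called without it was lost.

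For each of the 9 genes the 2 genes with the most similar profile were sought among the other 13727 tested, by Pearson's r of log2 values over the 18 arrays. The arrays fall into 6 groups of 3 and are not independent points, so r is a description. Cdkn2c was most like Cdc25b (r = 0.98) and Dut (0.98), a CDK-activating phosphatase and a nucleotide enzyme. Cdkn2a was most like Mfap3l (0.98) and Smoc1 (0.98), and Cdkn2b like Mknk2 (0.95) and Dpep1 (0.95). For Cdkn1a the nearest were Ubl3 (0.96) and Atp6v1c1 (0.96), for Cdkn1b Tnrc6b (0.95) and Atg2a (0.91), and for Cdkn1c Aplp1 (0.96) and St3gal2 (0.96). Ccnd1 was most like Shc4 (0.97) and Igfbp4 (0.97), Ccnd2 like Serf2 (0.97) and Adcy7 (0.96), and Ccnd3 like Ptms (0.97) and Hacd1 (0.95).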

How the data were processed

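The table the authors deposited holds log2 values per probe set for 18 Affymetrix arrays, made with RMA per the submitters' processing notes (version not given), and were used without further normalization. Of 45101 probe sets, 34958 had 1 gene symbol and were kept, with the brightest standing for each gene. Genes were tested if at least 1 group mean reached the 40th percentile of the table (4.65), which gave 13728. limma 3.58.1 (R 4.3.3) fitted a mean per group to all arrays (12 residual degrees of freedom), with Benjamini-Hochberg adjustment over all 13728 genes and calls at an adjusted p under 0.05. Second probe sets were fitted and adjusted among 24662 probe sets. Errors are SE for differences and SD for levels, and the number of arrays limits the precision. Replicate numbers paired arrays within a genotype: deviations from the group means correlated at 0.30 to 0.69 in 9 of 9 same-number pairs, against -0.56 to 0.09 for other numbers, so a fit with the replicate block (6 residual degrees of freedom) is given where it changes a call or moves a count by over 1.5 times. The fits were tested on simulated data. The members and lists were chosen with earlier results of these data known. Named were the 9 members, Atf4 and Cebpg, the 4 called partners and regulators with the largest change in each response and response difference, and the 2 genes most like each member. Alternatives were the block, only the compared groups, no filter, mean of probe sets, each probe set alone, a trended robust prior, quantile normalization and leaving out each array.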

Additional observations from a re-analysis of the deposited data

Results flagged for a closer look

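With the replicate block, 6 of the 9 genes responded to AAD differently in Atf4-/- and in WT by a test of the difference itself. Of these 5 were higher and 1 lower, beside 12.1% and 11.7% of all genes. The differences were 0.33 for Ccnd1, 0.23 for Ccnd2, 0.44 for Ccnd3, -0.29 for Cdkn1a, 0.47 for Cdkn1c and 0.33 for Cdkn2c on the log2 scale. The same test between Atf4-/- and Cebpg-/- gave 0.39 for Ccnd3, -0.24 for Cdkn1a and 0.37 for Cdkn1c. These were 2 higher and 1 lower of the 9, beside 5.73% and 7.55% of all genes. Without the block, the second Cdkn1a probe set differed between Atf4-/- and WT by -0.35, and the second Ccnd3 probe set by 0.02, which was not called. In the fit without the block, none of the 9 brightest probe sets passed the threshold for these differences.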

How the results depend on the processing

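With the replicate block, the number of the 9 genes called was 6 (3 without it) for AAD in WT, 2 (0) for AAD in Atf4-/-, 6 (0) for the difference of the responses of Atf4-/- and WT, and 3 (0) for that of Atf4-/- and Cebpg-/-; it moved no other count of the 9 genes by over 1.5 times. Leaving out 1 array at a time gave 0 to 2 and 0 to 1 for these 2 differences. The mean of all probe sets of a gene gave 5 (3) for Cebpg-/- against WT in normal medium. Of all genes, 3098 of 12932 were then called (3204 of 13728). Over single genes and alternatives, 1254 results kept their side of the threshold, 27 passed it in place of failing, 15 failed in place of passing, and 0 called values changed sign. Counts over all genes that moved by over 1.5 times with the block were 1523 (645 without it) for AAD in Atf4-/-, 4663 (3013) in Cebpg-/-, 3270 (1752) for Atf4-/- less WT, 189 (31) for Cebpg-/- less WT and 1824 (728) for Atf4-/- less Cebpg-/-. For AAD in WT the block also raised the count over all genes, to 5380 of 13728 (3865 without it). With only the compared groups, AAD in Atf4-/- gave 329 (645). The 31 became 56 with a trended robust prior and 55 after quantile normalization, and 8 to 51 without single arrays. Without single arrays the 645 fell to as low as 334 and Cebpg-/- against WT in normal medium to 2081 (3204). The cause of these changes was not tested. Fits with only the compared groups or without single arrays also held fewer arrays.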
